A study of Mus musculus with 10 samples.

Results

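The transcription factors described here set and maintain the identity of the intestinal epithelium or drive its absorptive cells, the enterocytes. They are the HNF4 receptors Hnf4a and Hnf4g, the caudal homeobox factors Cdx1 and Cdx2, the zinc finger factors Gata4 and Gata6, the Krüppel-like factors Klf4 and Klf5, and the homeobox factor Isx. They were chosen by name, with earlier results of these data known. The members are all probes that the array files name for 1 of these genes. This gave 9 of 28034 named genes and 16 of 41174 gene probes. Each member was described in crypts and organoids that lost the R-spondin receptors Lgr4 and Lgr5, and in organoids deprived of R-spondin.

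All RNA came from mouse small intestine and was hybridised to 10 Agilent arrays with 2 dyes, 1 day after the perturbation. Deleted crypts came from mice with floxed alleles of both receptors (Lgr4fl/fl, Lgr5fl/fl) and a Cre gene driven by an inducible promoter, which the labels call P450Cre and the series text AhCre. They were taken 1 day after induction, isolated with EDTA and hybridised together with crypts of wild type control mice. The labels give 2 biological replicates, and each was hybridised on 2 arrays that differ in which RNA carried which dye. The labels do not say whether the control mice received the inducer, nor how many mice each replicate holds. Deleted organoids were grown from small intestine of VillinCre_Lgr4fl/fl-Lgr5fl/fl mice, in which Cre is expressed throughout the epithelium, and were taken 1 day after deletion. Wild type organoids were from VillinCre_wt mice and, per the labels, had tamoxifen for 1 day. There were 2 cultures of each genotype. For R-spondin withdrawal, 1 culture was kept for 1 day after splitting in medium with EGF and Noggin only, and 1 control culture had EGF, Noggin and R-spondin. No genotype is given for these cultures. Every organoid RNA was labelled with Cy5, and the Cy3 channel of those arrays held Stratagene's mouse reference RNA.

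R-spondin is a secreted protein that binds Lgr4 and Lgr5 and raises Wnt signalling, which keeps crypt stem cells and progenitors dividing. HNF4 factors are nuclear receptors that bind DNA as dimers and activate genes of fat and nutrient absorption in enterocytes. Cdx2 specifies intestine as opposed to stomach and remains in the adult epithelium together with Cdx1, which Wnt signalling is known to activate. Gata4 marks the upper small intestine and represses ileal genes, whereas Gata6 is found along the whole intestine. Klf5 is known from dividing crypt cells, and Klf4 from differentiated cells, where it restrains division and supports goblet cells. Isx is an intestine-specific homeobox factor that is induced by retinoic acid and represses the carotenoid genes Bco1 and Scarb1.

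Sequences are shown for the members whose values the results turn on. Of the 9 members, 4 matched the RefSeq promoter table (GRCm38.p6): Hnf4a with 2 starts, and Cdx2, Klf4 and Isx with 1 each. The 250 bases before the start are given for Isx and Klf4, which both read higher in every comparison, and for Cdx2, which did not. Capitals mark motifs found by a search of both strands. The motif letters for TCF and LEF factors, the nuclear partners of Wnt signalling, were CTTTGA with CTTTGT as the second form. Those for an HNF4 receptor dimer's repeated element were AGGTCA, those for GATA factors AGATAA and those for caudal factors TTTATN. The letters searched for the HNF1 homeobox factors were GTTAAT, and for Krüppel-like factors CCACCC. No match overlapped another in these windows.
Isx, chr8:74872924-74873173, plus strand: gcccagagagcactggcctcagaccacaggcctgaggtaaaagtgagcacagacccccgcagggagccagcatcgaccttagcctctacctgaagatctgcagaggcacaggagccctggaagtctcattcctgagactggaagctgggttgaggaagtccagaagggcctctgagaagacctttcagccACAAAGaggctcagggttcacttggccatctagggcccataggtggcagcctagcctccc
Klf4, chr4:55532476-55532725, minus strand: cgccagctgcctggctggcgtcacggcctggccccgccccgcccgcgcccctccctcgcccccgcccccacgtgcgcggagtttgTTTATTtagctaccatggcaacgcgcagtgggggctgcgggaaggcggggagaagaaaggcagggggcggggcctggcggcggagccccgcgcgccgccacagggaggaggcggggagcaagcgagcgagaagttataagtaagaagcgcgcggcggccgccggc
Cdx2, chr5:147307250-147307499, minus strand: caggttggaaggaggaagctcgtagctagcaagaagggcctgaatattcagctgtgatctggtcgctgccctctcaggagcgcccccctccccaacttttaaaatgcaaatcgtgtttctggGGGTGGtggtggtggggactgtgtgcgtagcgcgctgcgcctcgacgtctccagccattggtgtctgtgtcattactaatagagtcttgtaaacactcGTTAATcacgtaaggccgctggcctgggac
The Isx window held CTTTGT on the opposite strand, 60 to 55 bases before the start, a motif that 16.5% of 32851 promoters of the same length held. The Klf4 window, with a GC content of 74%, held TTTATN 165 to 160 bases before the start, as did 37.2% of promoters. The Cdx2 window held CCACCC on the opposite strand, 128 to 123 bases before the start, a motif found in 28.1% of promoters. It also held GTTAAT 30 to 25 bases before the start, a motif found in 6.43%. The windows of the 2 Hnf4a starts together held CCACCC at 4 places, AGATAA at 1 (9.99% of promoters) and GTTAAT at 2. A motif match describes letters and does not show that a factor binds there.

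Probes that lie in coding sequence show which part of a factor was measured. The main Klf5 probe reads through the codons of the linker that joins adjacent zinc fingers, in capitals. An Hnf4a probe reads through the DNA-binding domain, with 3 of its zinc-binding cysteine codons in capitals. Both are 60 bases long and come from the array files.
Klf5 probe A_51_P507290: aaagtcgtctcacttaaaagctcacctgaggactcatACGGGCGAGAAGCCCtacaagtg
Hnf4a probe A_52_P69656: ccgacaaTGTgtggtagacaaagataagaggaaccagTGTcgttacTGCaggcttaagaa
The Klf5 probe is placed by the array files (mm9) on the plus strand of chr14:99702656-99712388, an interval of 9733 bases, so its 60 bases cross an intron. A second Klf5 probe, named by another transcript record, lies at chr14:99704137-99704196, inside that interval. The Hnf4a probe above lies at chr2:163378302-163378361, and the brightest Hnf4a probe at chr2:163398074-163398133.

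By their brightest probes, the targeted genes were lower in every deleted sample. In crypts, Lgr4 read -1.51 and -1.61 and Lgr5 -1.89 and -1.48 (log2 deleted over wild type in replicates 1 and 2), each with a limma adjusted p of 0.0999. In organoids the raw Cy5 signal of Lgr4 was 2035 and 2846 in wild type and 198 and 355.5 in deleted cultures, a normalised log2 change of -3.58 (SE 0.37, adjusted p 0.108). That of Lgr5 was 1004 and 1591 in wild type cultures, the second spot marked by the scanner software, and 108 and 118.5 in deleted cultures, neither well above background. Another Lgr4 probe overlapped between the groups, at 299 and 225.5 in wild type and 406 and 219 in deleted cultures. In crypt replicate 2 its raw signal was higher in deleted crypts, at 486 against 250 in Cy5 and 318 against 159 in Cy3. The exons removed are not given in the sources used here. Without R-spondin, Lgr5 was at 173, not well above background, against 6455 with it. Between 40.2% and 63.1% of gene spots were well above background in Cy5. The Cy3 reference of the 4 organoid deletion arrays was unusual, with 3.66% to 4.26% of gene spots above background. Cy5 alone is therefore the measure for deleted organoids, and the ratio to the reference is given beside it. By that ratio Lgr4 read only -0.59 in deleted organoids (SE 0.27, limma adjusted p 0.963). The swapped arrays of crypt replicate 1 correlated at r = 0.35 over 16608 probes and those of replicate 2 at r = 0.92, as a description, so replicate 1 is the less precise.

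No member passed the test in deleted crypts or deleted organoids, and Hnf4g and Isx passed the fold set for R-spondin withdrawal. In crypts 8 members were tested with limma, and 0 had an adjusted p under 0.05, against 0.0419% of 11941 genes. Klf4 alone had an unadjusted p under 0.05, a level reached by 13.3% of genes. Both replicates were above 0 for Hnf4a, Gata6, Klf4 and Isx, 4 of 8 against 30.1% of genes, and both were below 0 for Klf5, 1 of 8 against 33.1%. In organoids 0 of 9 members passed by Cy5, against 0.0376% of 13311 genes (0.0301% higher and 0.00751% lower). Klf4 and Klf5 had an unadjusted p under 0.05 (7.69% of genes) and both deleted cultures above both wild type cultures (18.1% of genes), and both deleted below both wild type was seen for no member (18.5% of genes). By ratio to the reference 0 of 9 passed, as did 0 of 12883 genes. By that measure Klf4 had an unadjusted p under 0.05 (3.9% of genes), and Hnf4g, Klf4 and Isx had both deleted cultures above both wild type cultures (19.9% of genes). Hnf4g came past the threshold in organoids when the slide entered the model as a block, with a limma adjusted p of 0.0468, where 3.21% of genes passed. Without R-spondin, where 1 culture stood against 1 and no test is possible, a log2 change of 1 or more in the ratio was taken as a call. It was reached upwards by 2 of 9 members, against 4.42% of 17165 genes, and downwards by none, against 6.49%. By Cy5 alone the same 2 members, Hnf4g and Isx, passed upwards, against 5.4% of 17621 genes, and none downwards, against 7.17%.

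**Figure D1:**
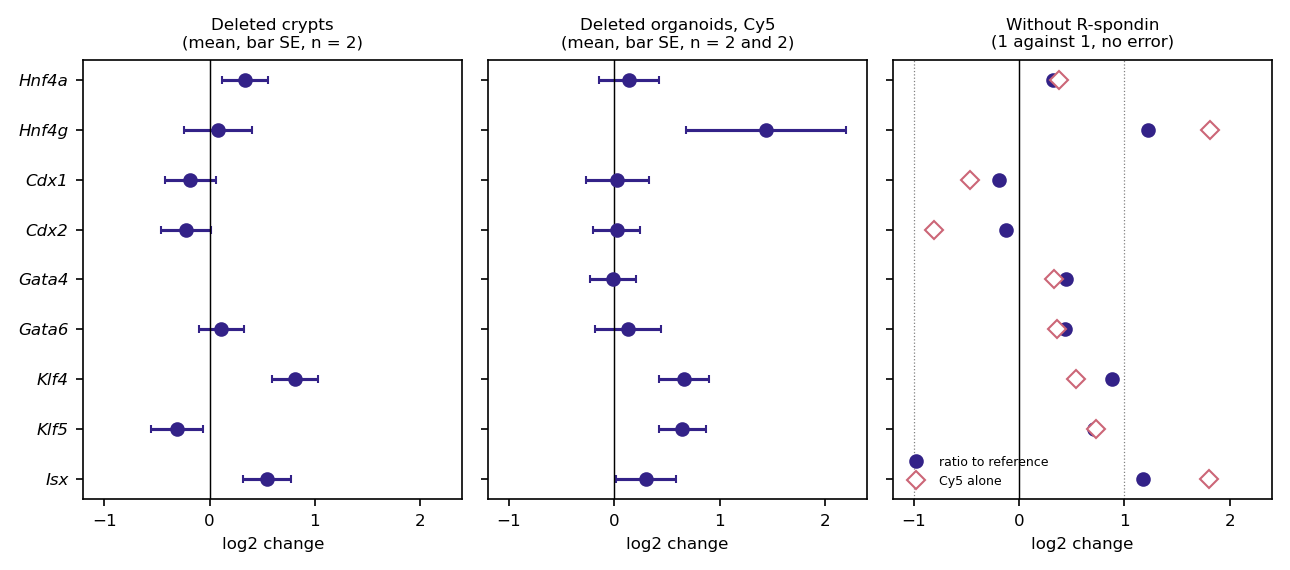
Log2 change (x axis) of each member (y axis) in deleted crypts, in deleted organoids by Cy5 and in organoids without R-spondin. Bars are the SE of limma's fit; the right panel has no error because 1 culture stood against 1, with dotted lines at the fold of 1. Klf4 lies to the right of 0 in each panel, Hnf4g has the widest bar in organoids, and Hnf4g and Isx pass the dotted line.

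Cell type markers differed between the same RNAs, and their part in the members' values was not tested. In crypts 10 of 11 immune markers read above 0, with a median log2 change of 1.70. The summed Cy5 signal of the 8 immune markers with unmarked spots on all arrays was 4150 to 5160 in wild type and 13400 to 14788 in deleted crypts. In organoids it was 795 to 812 in wild type and 755 to 820 in deleted cultures. Cd3d, Cd8a, Gzma and Gzmb were not well above background in any organoid RNA. Of the 12 immune markers listed, 4 were well above background on all arrays of wild type organoids and 4 on those of deleted organoids. The cultures with and without R-spondin each had 7 of 12 well above background. All 8 Paneth cell markers tested read below 0 in crypts (median -0.90), as did 9 of 11 stem cell markers (median -0.83) and all 5 stromal markers tested (median -0.76). In deleted organoids 8 of 9 stem cell markers read below 0 by Cy5 (median -1.58). Without R-spondin 10 of 12 stem cell markers were past the fold downwards by ratio (median -1.98) and 1 upwards. By ratio 1 of 8 goblet cell markers was past the fold upwards (median 0.43) and 2 of 8 Paneth cell markers downwards (median -0.30). By Cy5 these were 5 of 8 goblet (median 1.78) and 5 of 8 Paneth cell markers (median -1.14). In bulk RNA, fewer cells of a type and less RNA per cell cannot be told apart. The 6 epithelial markers were well above background in every RNA. The stomach and foregut factors Sox2 and Barx1 were well above background in none of the 10 RNAs.

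Hnf4a, the receptor that activates lipid transport genes in enterocytes, read slightly above wild type in deleted crypts. Its arrays gave 0.69 and -0.22 in replicate 1 (deleted RNA in Cy3, then in Cy5) and 0.49 and 0.38 in replicate 2. Only 1 array read below 0, and the mean log2 change was 0.33 (SE 0.22, n = 2, limma adjusted p 0.531). In organoids its normalised log2 Cy5 level was 11.73 and 12.04 in wild type and 11.72 and 12.33 in deleted cultures. The groups overlapped and the change was 0.14 (SE 0.29, adjusted p 0.973). Without R-spondin its log2 ratio to the reference was 6.07 against 5.75 with it, a change of 0.32, and 0.38 by Cy5. Its 2 dimmer probes read 0.15, -0.03, 0.32 and 0.39 over the crypt arrays for the first, and -0.05, -0.19 and -0.07 for the probe in the DNA-binding domain, which had 1 spot marked. In organoids the dim probe in the DNA-binding domain had a Cy5 level of 6.79 and 7.08 in wild type and 7.43 and 7.40 in deleted cultures. These did not overlap, unlike those of the brightest probe. By their brightest probes, 18.1% of genes had both deleted cultures above both wild type cultures. That dim probe read 0.50 by ratio without R-spondin.

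Hnf4g, the HNF4 receptor known from intestine, kidney and pancreas, had the largest Cy5 change of the members in organoids and without R-spondin. Its crypt arrays gave 0.52 and 0.81 in replicate 1 and -0.38 and -0.62 in replicate 2. Within each replicate both dyes had 1 sign, which differed between the replicates, and the mean was 0.08 (SE 0.32, adjusted p 0.928). In organoids its log2 Cy5 level was 10.74 and 8.39 in wild type and 11.46 and 10.53 in deleted cultures. Wild type culture 2 was far below the other cultures, at a raw signal of 347 against 1718 in wild type culture 1 and 2804 and 1771 in the deleted ones, and the groups overlapped. The change was 1.44 (SE 0.76, n = 2 and 2, limma adjusted p 0.729), a fold of 2.71. Each slide held 1 wild type and 1 deleted culture, and the difference within the slides was 0.73 and 2.15. With the slide as a block the adjusted p was 0.0468. Leaving out wild type culture 1, so that only the low wild type culture remained, gave 2.61, and leaving out wild type culture 2 gave 0.26. By ratio to the reference the change was 0.13, with the reference spot not well above background on these arrays.

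Without R-spondin, Hnf4g had a raw Cy5 signal of 8470 against 2148 with it. Its log2 ratio to the reference was 5.19 against 3.96, a change of 1.23, or 2.34-fold. By Cy5 the change was 1.81, or 3.51-fold, and the reference signal of the same spot was 255 on the array without R-spondin and 187.5 on the other. With the scanner's processed signals the change was 0.91, short of the fold. A second Hnf4g probe was not well above background on any array and has no measured change.

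Cdx2, which specifies the intestine, and Cdx1, its Wnt-responsive relative, showed no called change. Cdx2 on the crypt arrays gave 0.07 and -0.07 in replicate 1 and -0.41 and -0.49 in replicate 2, so replicate 2 alone lay clearly below 0. The mean was -0.22 (SE 0.23, adjusted p 0.691). Its log2 Cy5 level in organoids was 14.72 and 14.97 in wild type and 14.78 and 14.96 in deleted cultures. The groups overlapped, and the change was 0.02 (SE 0.22, adjusted p 0.997). Without R-spondin the Cdx2 ratio was 6.48 against 6.60, a change of -0.12, whereas Cy5 alone gave -0.80. The reference signal of the Cdx2 spot was 311 on the array without R-spondin and 394.5 on the array with it.

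Cdx1 had a usable spot on 3 crypt arrays, which gave 0.08 in replicate 1 and -0.29 and -0.61 in replicate 2. The replicates differed in sign, and the mean was -0.18 (SE 0.24, adjusted p 0.762). In organoids its level was 9.06 and 9.77 in wild type and 9.31 and 9.57 in deleted cultures, so that both deleted cultures lay between the wild type ones (change 0.03, SE 0.30, adjusted p 0.997). Without R-spondin its ratio was 3.73 against 3.92, a change of -0.19, and -0.46 by Cy5. Cdx1 and Cdx2 were the members that read lower without R-spondin by both measures, and neither came to the fold. With the scanner's processed signals both turned sign, to 0.65 for Cdx1 and 0.04 for Cdx2.

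Gata6, by its brightest probe, gave 0.14, 0.09, 0.19 and 0.04 on the 4 crypt arrays. All lay just above 0, and the mean was 0.11 (SE 0.21, adjusted p 0.839). In organoids its level was 13.08 and 12.70 in wild type and 13.37 and 12.66 in deleted cultures. Culture 1 of each genotype was the higher, the groups overlapped, and the change was 0.13 (SE 0.31, adjusted p 0.983). Without R-spondin its ratio was 1.98 against 1.55, a change of 0.43. A second, dimmer Gata6 probe gave 0.21, -0.05, 0.23 and -0.23 on the crypt arrays, with no common sign. It read 0.10 in organoids by Cy5 and 0.32 without R-spondin, and the third probe was too dim to be tested in either deletion.

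Gata4 was dim throughout. Its brightest probe had raw Cy5 signals of 174.5 and 393 in wild type and 198 and 400 in deleted crypts, with neither replicate 1 spot well above background. It was therefore not tested in crypts, where its arrays gave 0.44, -0.09, -0.36 and -0.25 with no common sign. In organoids its level was 7.37 and 7.60 in wild type and 7.44 and 7.52 in deleted cultures, overlapping, with a change of -0.01 (SE 0.22, adjusted p 0.998). Without R-spondin its ratio was 2.10 against 1.65, a change of 0.45. The other Gata4 probe, printed as 10 spots, gave 0.22.

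Klf4, which restrains division in differentiated cells, had the lowest p of the members in crypts and read higher in every deleted or withdrawn sample. It had a usable spot on 1 array of each crypt pair, with 0.94 in replicate 1 and 0.67 in replicate 2. Both lay above 0, and the other 2 arrays, whose spots were marked, gave 0.66 and 0.85 when kept. The mean was 0.81 (SE 0.22, n = 2), a fold of 1.75, with an unadjusted p of 0.0116 and a limma adjusted p of 0.270. Centring the arrays on their median in place of loess gave 1.85 (adjusted p 0.000312), where 2.95% of genes passed. Before loess the median of the brightest 10% of probes deviated from 0, by 1.09, -0.90, 0.30 and 0.88 on the 4 arrays, and the raw Klf4 signals on them ran from 5395 to 56498.

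In organoids the Klf4 level was 13.35 and 13.25 in wild type and 14.17 and 13.75 in deleted cultures. Both deleted cultures were above both wild type cultures, by 0.82 and 0.50 within the slides. The change was 0.66 (SE 0.24, n = 2 and 2), a fold of 1.58, with a limma adjusted p of 0.584, and of 0.109 with the slide as a block. By ratio the change was 0.55 (adjusted p 0.963). Without R-spondin the raw Klf4 signal was 25891 against 13634 with it, and the change was 0.88 by ratio and 0.54 by Cy5, below the fold by both.

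Klf5, known from dividing crypt cells, read in different directions in crypts and organoids. Its main probe gave -0.25 and 0.23 in crypt replicate 1 and -0.72 and -0.50 in replicate 2. Replicate 1 disagreed in sign between its dyes and replicate 2 lay below 0, and the mean was -0.31 (SE 0.25, adjusted p 0.605). The dim probe inside the intron interval gave -0.07 on the usable array of replicate 1 and -1.82 and -2.31 in replicate 2. In replicate 2 both probes lay below 0, the dim one further.

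In organoids the Klf5 level was 12.41 and 12.49 in wild type and 13.23 and 12.96 in deleted cultures. By this main probe the groups did not overlap, with within-slide differences of 0.82 and 0.47. The change was 0.65 (SE 0.22, n = 2 and 2), a fold of 1.56, with an unadjusted p of 0.0273 and a limma adjusted p of 0.570, and of 0.117 with the slide as a block. By ratio the change was 0.33. For the dim probe, wild type culture 1, at a Cy5 level of 7.51, lay between the deleted cultures, at 7.43 and 7.68. The dim probe's spot for wild type culture 2 was marked. Without R-spondin the main probe changed by 0.71 by ratio and 0.73 by Cy5, and the dim probe by 0.90 and 1.06.

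Isx, the repressor of carotenoid uptake and cleavage, read above wild type on every crypt array. The arrays gave 0.42 and 0.25 in replicate 1 and 0.74 and 0.76 in replicate 2. Replicate 2 was the higher by both dyes, and the mean was 0.54 (SE 0.23, n = 2), a fold of 1.46, with a limma adjusted p of 0.384. In organoids its level was 14.69 and 14.14 in wild type and 14.93 and 14.50 in deleted cultures. The deleted culture was the higher on each slide, by 0.24 and 0.36, but the groups overlapped, and the change was 0.30 (SE 0.29, adjusted p 0.895). Without R-spondin its raw Cy5 signal was 49675 against 10949 with it. Its log2 ratio was 7.82 against 6.64, a change of 1.18 or 2.27-fold, and by Cy5 the change was 1.80 or 3.49-fold. The reference spot of Isx was dim, at 231 and 155, and the scanner's processed signals gave a change of 0.36, short of the fold.

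**Figure D2:**
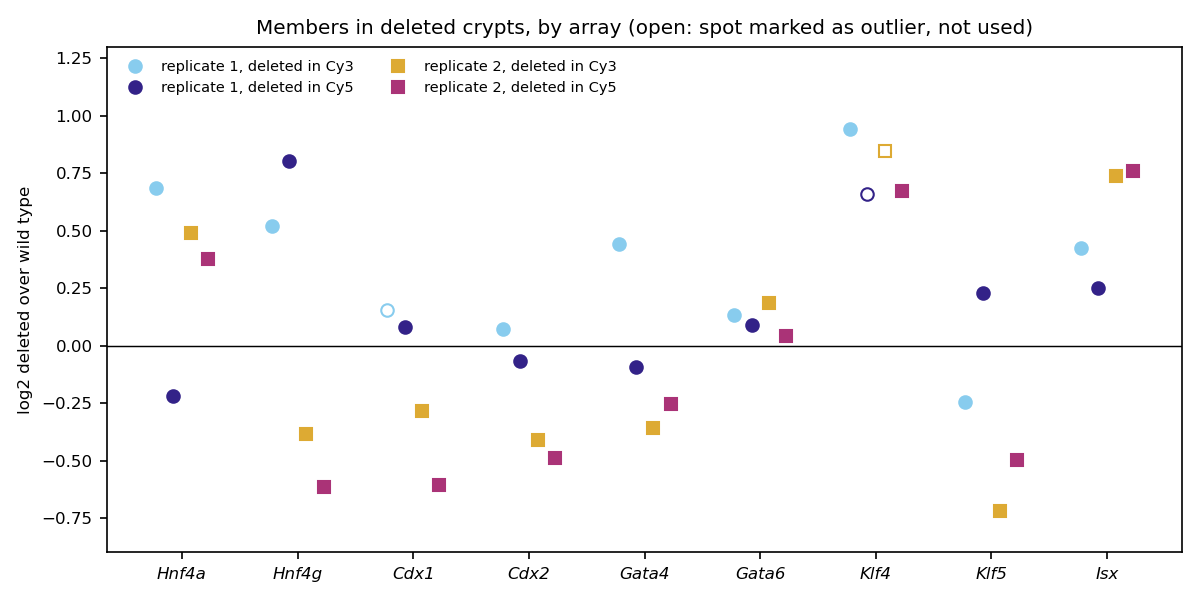
Log2 deleted over wild type (y axis) for each member on each of the 4 crypt arrays; circles are replicate 1, squares replicate 2, and open symbols are spots marked by the scanner software and not used. Isx and Klf4 lie above 0 on every array, and Hnf4g lies above 0 in replicate 1 and below 0 in replicate 2.

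**Figure D3:**
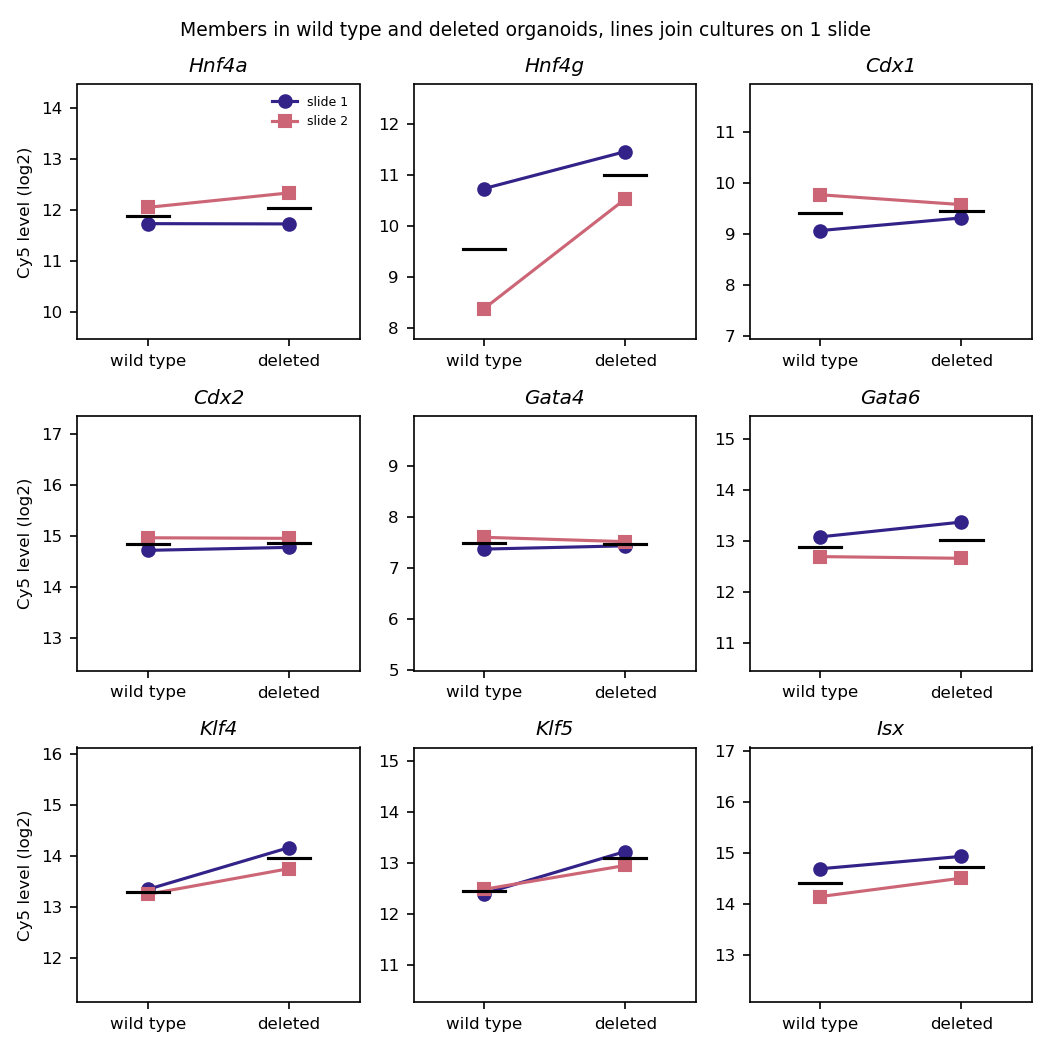
Normalised log2 Cy5 level (y axis) of each member in wild type and deleted organoids (x axis); a line joins the cultures hybridised on 1 slide and black bars are the means of 2 cultures. Klf4 and Klf5 are higher at the deleted end of both lines, without overlap, and Hnf4g has 1 wild type culture at 8.39, far below the others.

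To compare the systems in 1 dye, the Cy5 signals of all 10 RNAs were normalised together; slide and system cannot be told apart, so these levels were not tested. Isx was lowest in organoids with R-spondin, at 13.00, below all other RNAs. It was at 13.69 and 14.26 in wild type crypts, 14.25 and 14.65 in deleted crypts, 14.27 and 14.84 in wild type organoids, 14.67 and 15.12 in deleted organoids and 14.96 without R-spondin. Each of these neighbours in the order overlapped the next, so that only the culture with R-spondin stood apart. Hnf4g ranged from 8.67 in wild type organoid culture 2 to 12.43 in deleted crypts replicate 1, with 12.33 without R-spondin. The replicates of wild type organoids and of both crypt groups were more than 1 log2 unit apart.

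Cdx2 lay at 14.88 to 15.16 in the organoid RNAs with R-spondin in the medium or from the deletion series, above the 13.79 to 14.42 of the crypts. The culture without R-spondin, at 13.99, was in the range of the crypts. Klf4 was at 13.34 with R-spondin and at 13.44 and 13.53 in wild type organoids, below the 13.93 of the culture without R-spondin, the 13.90 and 14.30 of deleted organoids, the 14.14 of 1 wild type crypt RNA and the 14.42 and 14.44 of deleted crypts. Klf5 was lowest in wild type organoids, at 12.62 and 12.69, and reached 13.77 without R-spondin and 13.96 in wild type crypts replicate 1. Hnf4a stayed between 11.62 and 12.68, with the highest value without R-spondin, and Gata6 between 12.84 and 13.80. Cdx1 was between 9.13 in wild type crypts and 10.21 with R-spondin. Gata4 was between 6.73 and 7.40 in crypts and highest, at 8.37, without R-spondin.

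**Figure D4:**
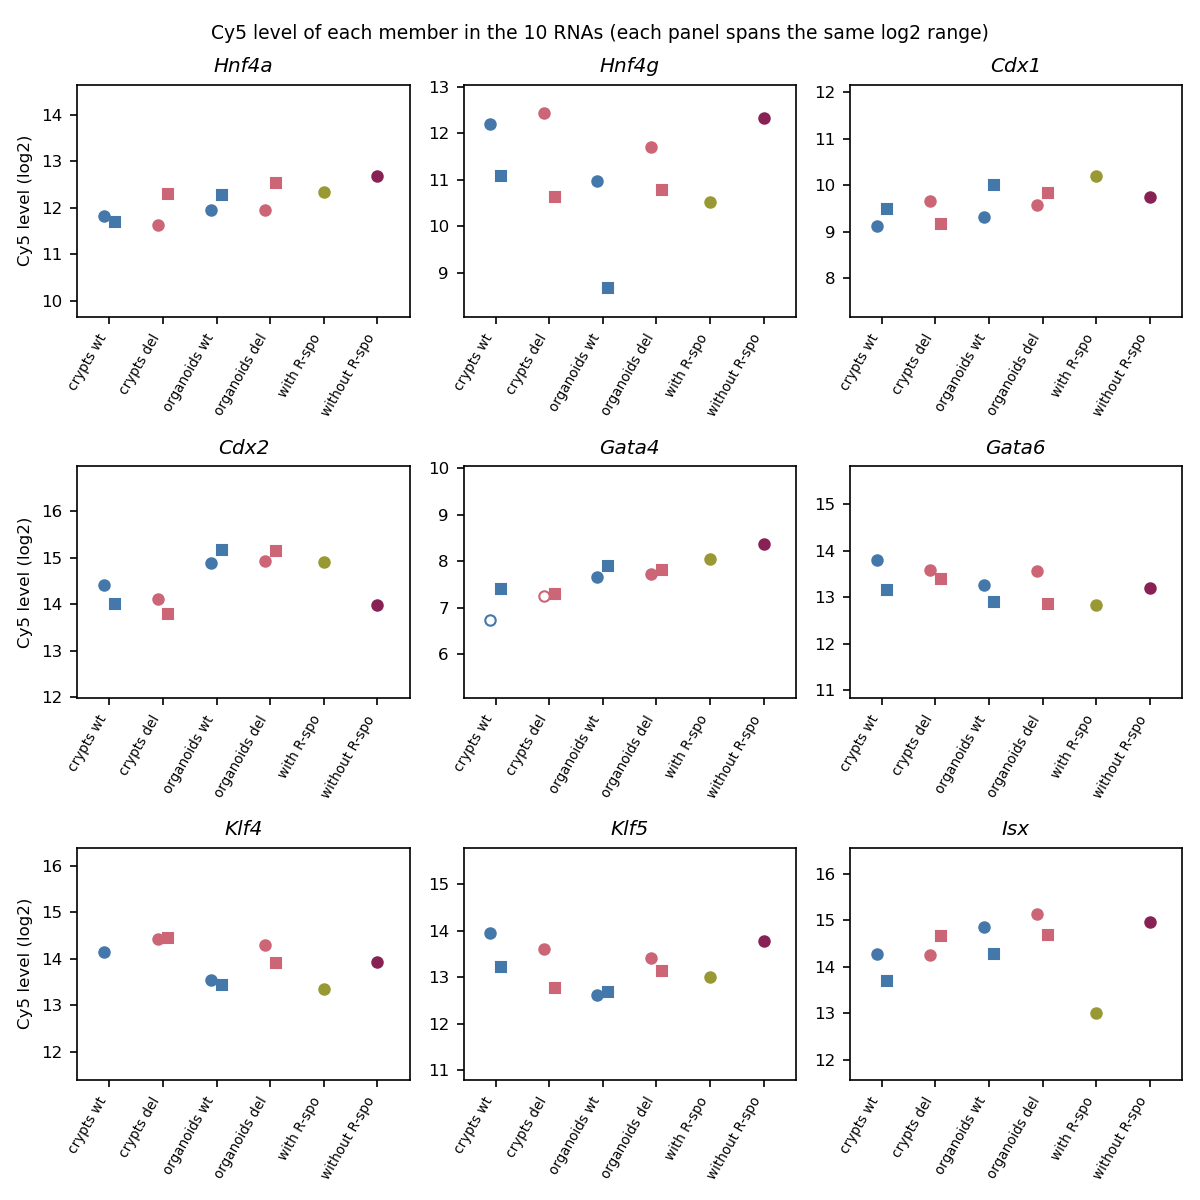
Normalised log2 Cy5 level (y axis, the same span in each panel) of each member in the 10 RNAs (x axis), with circles for replicate 1, squares for replicate 2 and open symbols for spots not well above background. The culture with R-spondin is the lowest for Isx, and the culture without it lies with the crypts for Cdx2.

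Whether a member changed differently in organoids and crypts was tested directly, as the within-slide organoid difference minus the crypt value. With limma 0 of 8 members passed, against 0.432% of 11102 genes. Hnf4g (1.36, SE 0.53, adjusted p 0.452) and Klf5 (0.95, SE 0.32, adjusted p 0.393) had an unadjusted p under 0.05, which 10.1% of genes had. For Klf5 the organoid values of 0.82 and 0.47 lay above both crypt values of -0.01 and -0.61. For the other 6 the difference was between -0.24 for Isx and 0.25 for Cdx2.

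The members as a list were set beside all genes tested. In crypts 5 of 8 read above 0 with a median of 0.10, beside 47.6% of all genes and a median of -0.02. In organoids 8 of 9 did with a median of 0.14 by Cy5, beside 52.5% and 0.02. By ratio 6 of 9 did with 0.01, beside 54.6% and 0.03. Without R-spondin 7 of 9 did with a median of 0.45, beside 57.4% and 0.07.

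The factors that act with them in enterocytes read in mixed directions, and 0 of them passed in crypts or organoids. Of 24 partner factors, 10 of 19 tested read above 0 in crypts (median 0.03), 14 of 23 in organoids (0.22) and 12 of 23 without R-spondin (0.12). Foxa2, a forkhead factor of gut endoderm, read -1.48 in organoids (SE 0.32, limma adjusted p 0.326) and fell by 1.84 without R-spondin. Maf, a leucine zipper factor of enterocytes, read 1.14 in organoids (SE 0.49, adjusted p 0.667) and rose by 1.75 without R-spondin. Nr5a2, a nuclear receptor of crypt cells, read -1.37 in crypts (SE 0.41; replicates -0.52 and -2.21) and rose by 1.18 without R-spondin. Nr1h4, the bile acid receptor, read 1.01 in organoids (SE 0.23, adjusted p 0.366). Without R-spondin, 3 partner factors were past the fold upwards and 2 downwards. Of the other Klf genes, 2 of 8 tested read above 0 in crypts (median -0.30) and 6 of 8 in organoids (0.17), and none of 13 passed the fold without R-spondin.

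Enterocyte genes, listed for their cell type and not as measured targets of these factors, read higher in most cases. Of those tested, 26 of 28 read above 0 in crypts (median 0.57) and 27 of 29 in organoids by Cy5 (0.38). By ratio in organoids 16 of 28 did (0.10), beside 54.6% of all genes. None passed limma's test in the deletions. Slc9a3, the apical sodium-proton exchanger, read 1.40 in crypts (SE 0.23, adjusted p 0.159) and 1.56 in organoids by Cy5 (SE 0.42, adjusted p 0.448), but -2.19 by ratio (SE 1.66, adjusted p 0.963). Lct, lactase, read 1.25 in organoids (SE 0.25, adjusted p 0.301). Without R-spondin 23 of 24 enterocyte genes read above 0 by ratio (median 0.66) and 7 were past the fold, among them Slc26a3, the chloride exchanger, at 2.20, and Enpep, a brush border peptidase, at 1.88. By Cy5 16 of 26 were past it. The summed Cy5 signal of the 18 enterocyte genes with unmarked spots was 86877 with and 232964 without R-spondin, 122928 to 155627 in wild type and 193580 to 211722 in deleted crypts, and 100671 to 109859 in wild type and 127840 to 129994 in deleted organoids. The ranges of wild type and deleted RNAs did not overlap in either system. Of single genes, 18.1% had both deleted organoid cultures above both wild type cultures by Cy5. The sum holds 18 of the 33 listed genes, rests on Cy5 alone and was not tested.

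The carotenoid genes that Isx represses differed in direction between the comparisons. Bco1, the carotene-cleaving enzyme, read 0.80 and 0.77 in the crypt replicates (mean 0.78, SE 0.21, limma adjusted p 0.270), and 0.28 in organoids (SE 0.21, adjusted p 0.854). Scarb1, a lipid and carotenoid receptor, read 0.25 in crypts (SE 0.22) and -0.79 by ratio and -0.77 by Cy5 without R-spondin, short of the fold. Bco1 was measured there by Cy5 alone, at -1.50, past the fold downwards. The ileal bile acid genes, kept low in the upper intestine by Gata4, include the basolateral transporter subunits Slc51a and Slc51b, which rose by 1.67 and 1.91 without R-spondin. Slc10a2, of the same list, rose by 0.86, short of the fold, and Fabp6 was well above background in no RNA. In organoids Slc51a and Slc51b read 1.11 (SE 0.35, adjusted p 0.532) and 0.68 (SE 0.22, adjusted p 0.549) by Cy5. The 2 ileal genes tested by ratio in organoids read below 0.

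Wnt target and cell cycle genes mostly read below 0. Of the Wnt targets tested, 12 of 15 read below 0 in crypts (median -0.69) and 14 of 14 in organoids (-1.27), and 15 of 18 were past the fold downwards without R-spondin (-1.94). All 12 cell cycle genes read below 0 in organoids (-0.93), and 11 of 12 were past the fold downwards without R-spondin (-2.50). Cdx1, which Wnt signalling is known to activate, did not reach that fold.

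**Figure D5:**
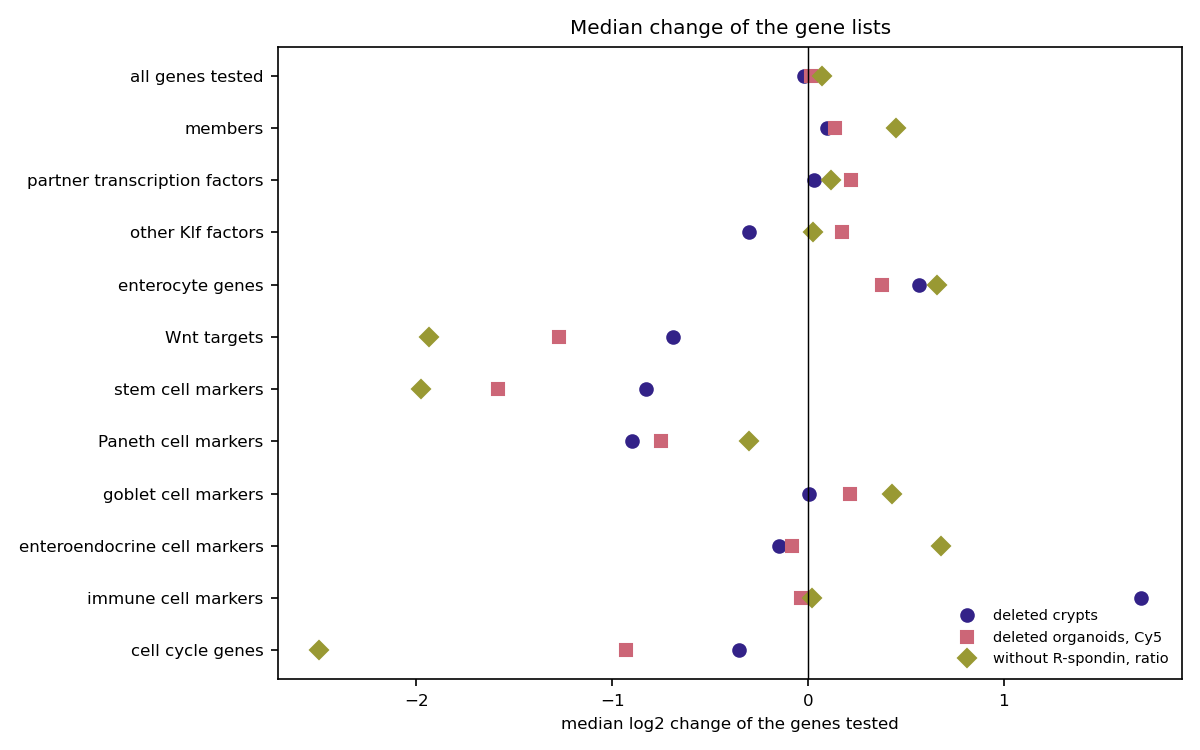
Median log2 change (x axis) of the genes tested in each list (y axis) in deleted crypts (circles), deleted organoids by Cy5 (squares) and without R-spondin by ratio (diamonds). The members' median reaches 0.45 without R-spondin, between that of all genes and that of the enterocyte genes.

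Across the 10 Cy5 levels, the genes most like each member were found among 8355 named genes that were well above background on every array, as a description in which the points share slides and systems. For Hnf4g they were Rfk (Pearson r = 0.97), which makes the flavin cofactor FMN, and Abhd18 (0.97). For Isx they were Fahd1 (0.97) and Leng9 (0.93), for Klf5 Lmbrd1 (0.96) and Efnb1 (0.95), and for Hnf4a Bag3 (0.96) and Wbp1l (0.94). For Cdx2 they were Pced1a (0.94) and Glul (0.93), for Cdx1 Tmem259 (0.93) and Deaf1 (0.93), and for Gata6 Syap1 (0.94) and Erlin2 (0.93). Klf4 and Gata4 had a marked or dim spot on at least 1 array and were not compared. Between members, Hnf4g and Klf5 were the most alike (r = 0.82) and Cdx1 and Gata6 the least (r = -0.76).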

How the data were processed

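The authors' scanner files hold median and mean pixel signals and processed signals per spot, in the unit intensity. The deposited log ratio column and the deposited series matrix hold log10 ratios, with a median near 0 per array. In the matrix the sign is turned, relative to the log ratio column, where deleted crypt RNA was in Cy3. The scanner software was version 10.5.1.1 of Agilent Feature Extraction per the file headers and 8.5.1.1 per the submitters' processing notes. Probe positions are those of the file headers (mm9). Labels and headers name biological replicates and slides. With 2 replicates a group, limma's moderated SE combines a gene's own replicate spread with the spread pooled over all genes. In crypts Gata6, at 0.112 and 0.114 in the replicates, still had an SE of 0.21. The p-values therefore do not measure a gene's own replicate spread alone, and the number of arrays limits the precision. Where a crypt replicate was left out, the p-values measure no spread between crypt replicates.

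Spots that the software marked as outliers were left out. Signals were corrected in limma 3.58.1 (R 4.3.3, data.table package 1.17.8) by normexp with an offset of 50, then by loess (span 0.3) within arrays for ratios or by quantiles between arrays for Cy5 alone. The brightest probe stood for a gene, and a gene was tested if all arrays of 1 group had it well above background. Swapped arrays were read as deleted over wild type, and their mean gave 1 value per replicate. limma's moderated test, two-sided, with Benjamini-Hochberg adjustment over all genes, was called at an adjusted p under 0.05. The 2 R-spondin cultures allow no test.

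All 9 members are named in every comparison. Of each other list, up to 4 genes were eligible to be named, by the size of a change in the same direction in every replicate, and 2 per member by likeness. The members and lists were chosen with earlier results of these data known. Alternatives changed the signal, the normalisation, the filters, the probe rule, the slide block and the replicates used.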

Additional observations from a re-analysis of the deposited data

How the results depend on the processing

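The count of called genes depended strongly on the processing, while few members changed side of the threshold. In crypts 5 genes were called (5 higher, 0 lower), against 771 (437 and 334) with processed signals, 495 (315 and 180) with the series matrix, 37 (27 and 10) with marked spots kept, 352 (292 and 60) with median centring, 0 without the filter on dim probes, 57 (44 and 13) with the mean of probes, 253 (183 and 70) in a joint fit with organoids, 407 (224 and 183) with deleted RNA in Cy3 alone and 95 (69 and 26) in Cy5 alone. Leaving out replicates gave 3 to 588, the latter without crypt replicate 1. In organoids 5 genes were called (4 higher, 1 lower), against 0 by ratio, 81 (44 and 37) with the processed Cy5 signal, 10 (5 and 5) with 75th percentile centring, 1 with marked spots kept, 0 without the filter, 427 (189 and 238) with the slide as a block and 0 to 111 without 1 culture. Unadjusted, 503 genes (3.9%) had a p under 0.05 by ratio. Without R-spondin 1873 genes passed the fold, against 2918 with processed signals (1448 and 1470). For the difference between systems 48 genes were called, against 0 with organoid ratios and 0 to 459 without 1 replicate. Among the alternatives that kept every replicate, only Klf4 in crypts (median centring) and Hnf4g in organoids (slide as a block) came past the threshold of the members. Without R-spondin, Hnf4g (0.91) and Isx (0.36) fell short of the fold with processed signals; the cause was not tested.

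Signs turned for members near 0. In crypts Hnf4g was -0.0375 with marked spots kept, and Cdx2 was 0.18 and Klf5 0.0516 with median centring. Without 1 crypt replicate Hnf4g ranged from -0.50 to 0.66, Cdx1 from -0.45 to 0.0824 and Cdx2 from -0.45 to 0.003. In organoids the ratio gave -0.21 for Hnf4a and -0.21 for Cdx1, and marked spots kept gave -0.12 for Cdx2. Without 1 culture Hnf4a ranged from -0.17 to 0.44, Cdx1 from -0.32 to 0.38, Cdx2 from -0.10 to 0.15, Gata4 from -0.13 to 0.10 and Gata6 from -0.23 to 0.48. For the difference, organoid ratios gave -0.0255 for Cdx1 and -0.11 for Gata6, and leaving out 1 replicate gave -0.0548 to 0.47 for Cdx1, -0.15 to 0.18 for Gata6 and -0.31 to 0.01 for Klf4. Hnf4a, Gata6, Klf4 and Isx in crypts, and Hnf4g, Klf4, Klf5 and Isx in organoids, kept their sign under every alternative run. Without R-spondin, Cdx1 was 0.65 and Cdx2 0.0401 with processed signals. Of 269 member values under an alternative, 237 kept their sign and side of the threshold or fold, and 27 turned sign. Signal near background limits Gata4 and the dim probes.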
